A study of Mus musculus with 51 samples.

Results

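The report describes 38 genes of the intestinal epithelium in mouse RNA-seq libraries. They were chosen as named markers of absorptive, goblet, Paneth and stem cells of the intestine, and their rows were found by gene symbol. All 38 matched 1 row each among the 52636 genes of the deposited count table, and 10741 of those genes had no count in any library. By function, 22 members belong to absorptive cells, 8 to goblet cells, 4 to Paneth cells and antimicrobial defence, and 4 to stem and progenitor cells.

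The study sequenced sorted epithelial cells in 51 libraries of 14 groups. The tissue groups came from Krt8YFP mice of mixed genetic background: gut (n = 2) and stomach (n = 2), both sorted for YFP, columnar cells of the junction between oesophagus and stomach (n = 4), sorted for high EpCam and YFP, and embryonic oesophagus at E13.5 (n = 2), sorted for EpCam and YFP. Squamous cells of the junction (n = 3) also came from Krt8YFP mice. The names their libraries had before renaming hold EpHi, for EpCam-high. Their background and any sorting by YFP are not given in the labels used here. The other groups were oesophagus. K8YFP+ (n = 3) and K8YFP- (n = 3) cells came from Krt5-SmoM2-Krt8YFP mice of mixed background and were EpCam-high cells with and without YFP. Krt5-SmoM2-Sox9fl/fl cells (Sox9cKO, n = 4) carried floxed Sox9 alleles on top of SmoM2, and their gate is not given in the labels used here. Krt5-SmoM2 cells of strain CD1 (SmoM2, n = 6) were EpCam-high, and a separate SmoM2 set was labelled EpCam-high or EpCam-low (EpHi and EpLo) at 3 and 7 weeks (n = 4 each). Wild-type cells of strain CD1 (WT, n = 6) were EpCam-low. SmoM2 is an activated form of Smoothened, the signal transducer of the Hedgehog pathway, named here with the basal keratin gene Krt5, and Krt8YFP is a reporter named for the simple-epithelial keratin gene Krt8. Strain, gate and tissue therefore differ together with the group in several comparisons. The labels do not tie libraries to separate animals, so p-values measure the spread between libraries.

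In the intestine, absorptive enterocytes carry a brush border of microvilli that holds digestive enzymes and transporters, and they package dietary fat into lipoproteins. Goblet cells secrete mucus and its associated proteins, Paneth cells at the crypt base secrete lysozyme and alpha-defensins, and crypt stem cells renew all of these. The factors CDX1 and CDX2 specify intestinal identity, and HNF4A and HNF4G drive enterocyte genes. Normal oesophagus is a stratified squamous epithelium, and intestinal genes in columnar cells near the stomach are a hallmark of intestinal metaplasia in humans.

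The upstream sequences of 4 absorptive members are shown because their patterns differed in the data below: Sis (sucrase-isomaltase) and Alpi (intestinal alkaline phosphatase), which were high in gut and near 0 in most other libraries, and Cdhr2 (a microvillus cadherin) and Vil1 (villin, an actin bundler of microvilli), which were also high in junction columnar cells. Each is the 250 bases before the RefSeq gene start on build GRCm38.p6, written 5′ to 3′ on the gene's strand, with every match to TTTAT or to its reverse complement ATAAA (the core letters bound by CDX factors) and to CAAAGTCCA (an HNF4 motif, searched on both strands) in capitals. The windows are chr3:72967864-72968113 (minus strand) for Sis, chr1:87101607-87101856 (minus strand) for Alpi, chr13:54701213-54701462 (plus strand) for Cdhr2 and chr1:74409134-74409383 (plus strand) for Vil1.
Sis: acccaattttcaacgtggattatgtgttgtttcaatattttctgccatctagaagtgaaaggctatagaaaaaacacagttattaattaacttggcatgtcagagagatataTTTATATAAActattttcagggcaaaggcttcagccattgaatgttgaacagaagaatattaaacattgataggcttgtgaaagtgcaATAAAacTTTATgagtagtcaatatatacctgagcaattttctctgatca
Alpi: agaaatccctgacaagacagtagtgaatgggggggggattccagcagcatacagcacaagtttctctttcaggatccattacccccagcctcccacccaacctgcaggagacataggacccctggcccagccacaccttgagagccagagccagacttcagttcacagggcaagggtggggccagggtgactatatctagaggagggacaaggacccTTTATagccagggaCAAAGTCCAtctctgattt
Cdhr2: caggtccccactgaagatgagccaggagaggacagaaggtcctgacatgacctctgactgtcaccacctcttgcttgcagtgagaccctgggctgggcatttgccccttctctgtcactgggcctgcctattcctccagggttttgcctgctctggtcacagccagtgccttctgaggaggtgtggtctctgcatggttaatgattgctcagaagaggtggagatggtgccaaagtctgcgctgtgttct
Vil1: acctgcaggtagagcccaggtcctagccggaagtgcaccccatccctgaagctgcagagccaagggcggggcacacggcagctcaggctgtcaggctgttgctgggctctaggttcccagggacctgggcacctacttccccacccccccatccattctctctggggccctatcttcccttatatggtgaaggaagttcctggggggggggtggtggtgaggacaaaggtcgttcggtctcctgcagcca

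Sis held 4 matches to TTTAT on either strand, 2 of them inside the TATA-box letters TATAAA or their reverse complement. Alpi held 1, also inside those letters, beside the CAAAGTCCA match, and the Cdhr2 and Vil1 windows held neither motif. The motif did not divide the members in this way: Cdhr5 and Gpa33, both higher in junction columnar cells than in stomach, held 1 TTTAT match each, and Apoa4, Guca2a and Mep1a held none. RefSeq windows were found for 30 of the 38 members, and the first listed was counted for Prom1, which has 2. TTTAT was in the windows of 14 of these 30 (46.7%), against 37.3% of all 32851 windows. The letters TATAAA were in 23.3% of member windows and 12.4% of all windows. Leaving out matches inside that TATA-box motif, TTTAT was in 33.3% of member windows and 31.0% of all. CAAAGTCCA was found in Alpi and in no other member window, 3.33% against 0.384% of all windows.

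Library totals ran between 1606571 and 12262365 counts, with 2805103 and 3632293 in gut, 7625065 and 3192411 in stomach, 4286047 to 6504645 in junction columnar cells and 1606571 to 6706081 in K8YFP+ cells. Levels below are in CPM, the count scaled to a common library total. A group mean under the value of 3 counts over its libraries is read as not detected, which is 0.277 CPM in stomach, 0.135 in junction columnar cells, 0.247 in K8YFP+ cells and 0.0563 in WT. The gut label was met by the intestinal factor Cdx2, at 90.2 and 124 CPM in the gut libraries and at 0 in both stomach libraries, and the stomach label by 11 gastric markers, which summed to 51440 and 53750 CPM there. Those gastric markers summed to 21.4 and 399 CPM in the gut libraries.

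The members were chosen as markers of the intestine, with earlier results of these data known. Their high level in gut was therefore partly set by that choice and is given as description. The 38 members summed to 35900 and 30460 CPM in the gut libraries. In junction columnar cells they summed to 2431 to 2796 CPM, in the embryo libraries to 1064 and 268 CPM, in the stomach libraries to 1131 and 876.5 CPM, in K8YFP+ cells to 148, 181 and 298.5 CPM and in WT to 69.6 to 98.8 CPM. The group mean was highest in gut for 34 members. It was highest in junction columnar cells for Spdef, Ascl2 and Prom1, and in SmoM2 cells for Smoc2. A mean of at least 1 CPM was reached by 37 members in gut, 26 in junction columnar cells, 19 each in stomach, K8YFP+ cells and embryo, 10 in SmoM2 cells and 7 in WT. In sorted bulk samples, fewer cells of a type and less RNA per cell cannot be told apart, and this holds for each comparison below.

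**Figure D1:**
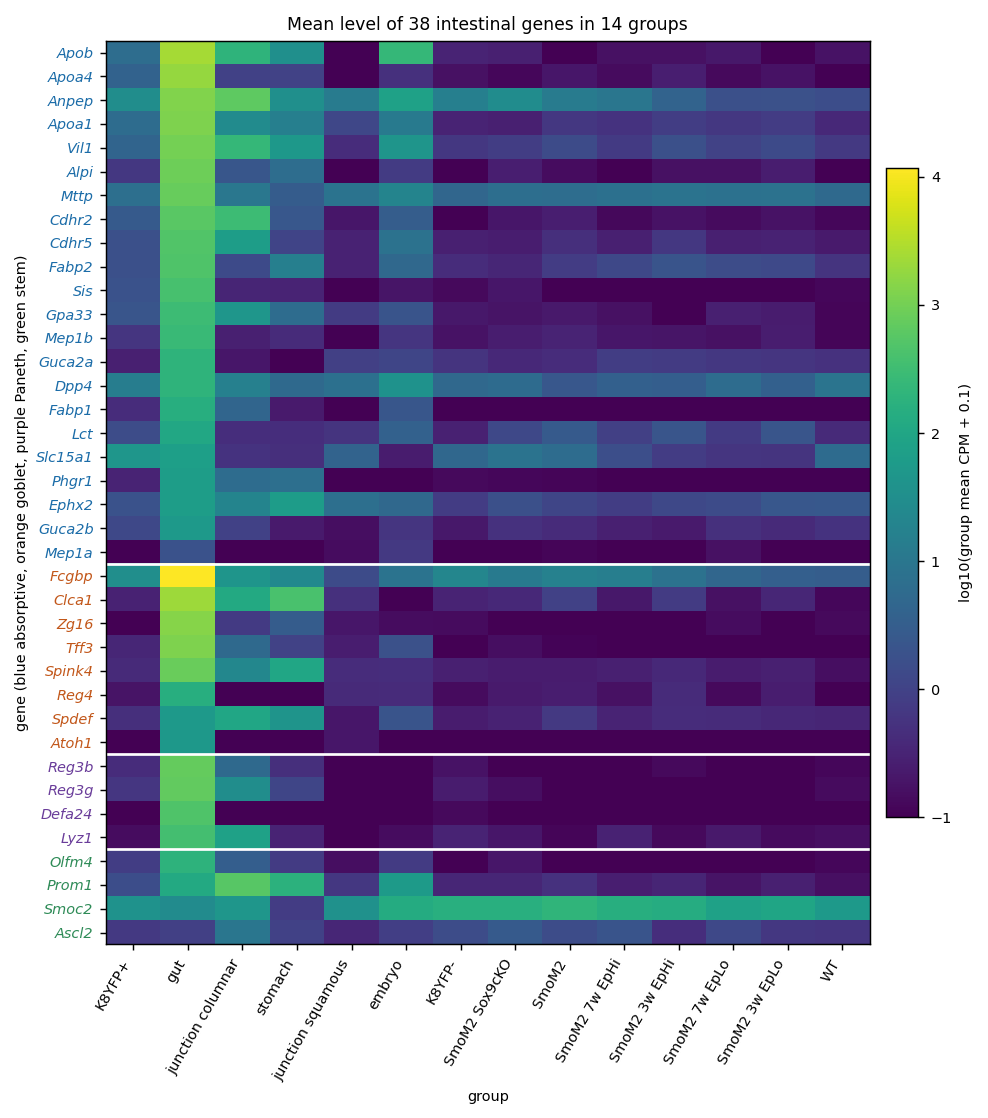
Group mean levels of the 38 members (rows, coloured by function and ordered by gut level) in the 14 groups (columns), as log10 of CPM plus 0.1. The gut column is bright in nearly every row, the junction columnar column is bright for part of the absorptive rows and for Prom1, and the oesophageal columns on the right are dark in most rows, with Smoc2 the brightest there.

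Within gut, levels were compared per kilobase of exon. Tff3, a trefoil peptide of goblet cells, stood first in both libraries, at 2414 CPM per kilobase in library 1 and 2609 in library 2. In library 1 it was followed by Apoa4 at 1858 and Apoa1 at 1792, apolipoproteins of the particles in which enterocytes export fat, and by Spink4, a goblet cell protease inhibitor, at 1369. In library 2 it was followed by Spink4 at 2075, by the alpha-defensin Defa24 at 1855 and by Fcgbp, a mucus protein that binds immunoglobulin, at 1328. Zg16, a lectin that binds bacteria in mucus, had 1074 and 1204 CPM per kilobase. At the other end, Mep1a, a subunit of the brush border protease meprin, had 1.43 and 2.20 CPM in the gut libraries, and Ascl2, a transcription factor of crypt stem cells, had 1.07 and 0.551 CPM. Mep1b, the partner subunit, had 373 and 174 CPM.

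The pair of gut libraries differed in a patterned way. Gut library 1 had the higher level for 15 of 22 absorptive members. Apoa4 had 3372 CPM in library 1 and 271.5 in library 2, Apob, the structural protein of chylomicrons, 4048 and 749, and Alpi 1702 and 80.4. Library 2 had the higher level for 8 of 8 goblet members, with a median ratio of library 1 to library 2 of 0.648, against 1.71 over the absorptive members. The other 7 absorptive members were higher in library 2, as the goblet members were. Lct, the milk-sugar enzyme lactase, differed most among these 7, at 13.2 CPM in library 1 and 203 CPM in library 2. Dpp4, Guca2a, Anpep, Fabp2, Mep1a and Sis had ratios of library 1 to library 2 between 0.329 and 0.685. The antimicrobial members split. Reg3b and Reg3g, bactericidal lectins of enterocytes, were at 1394 and 1220 CPM in library 1 and at 66.9 and 216 CPM in library 2. Lyz1, the Paneth cell lysozyme, and Defa24, an alpha-defensin, were at 98.8 and 159 CPM in library 1 and at 606 and 777 CPM in library 2. Olfm4, a crypt stem cell marker, had 84.9 CPM in library 1 and 293 CPM in library 2. The fibroblast markers summed to 6.06 CPM in library 1 and 145 CPM in library 2, and Krt8 was at 3110 and 363 CPM. The part of the intestine is not given in the labels, and the part that dissection or sorting had in this difference was not tested.

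**Figure D2:**
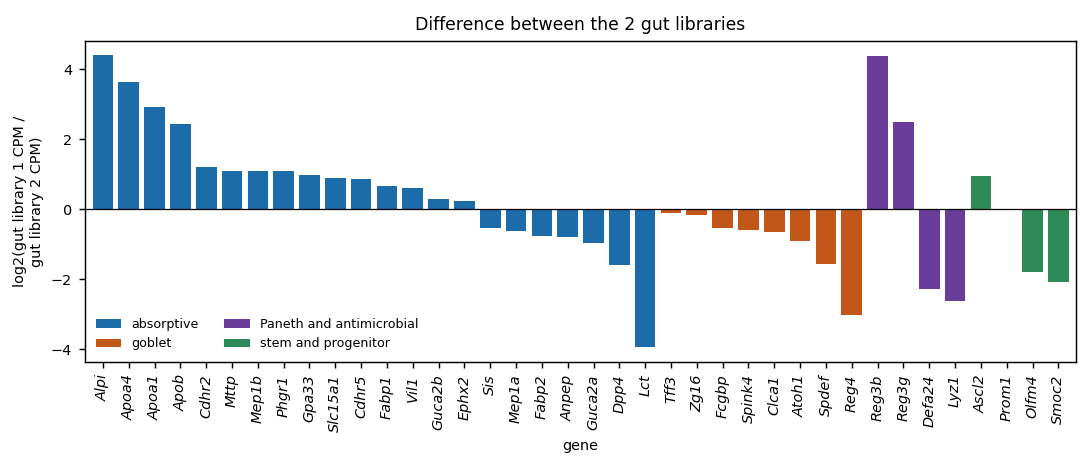
Level of each member in gut library 1 relative to gut library 2, as log2 of the CPM ratio, grouped by function and ordered within each group. Bars above 0 are higher in library 1: most absorptive bars point up and all 8 goblet bars point down.

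Gut was first set against stomach, the other columnar epithelium of the digestive tract, to see which members separate them. Of the 38 members, 34 were higher in gut and none was lower at an adjusted p under 0.05 (edgeR quasi-likelihood test over all 51 libraries, 22370 genes tested, where 15.6% of genes were higher and 15.4% lower). With DESeq2 and without any filter the count of lower members was also 0, and the 34 include each member with an unadjusted p under 0.05. Of the 38, 5 had no stomach count. A lower call was not open to these, so the counts of higher and lower members are partly set in advance. The median difference over the members was 8.06 on the log2 scale, or 7.83 with genes without stomach counts set at their bound, beside -0.0274 over all genes. Markers of other cell types were higher in gut as well, with 4 of 4 endothelial, 4 of 8 fibroblast and 3 of 7 immune markers tested called. The endothelial markers summed to 14.6 to 64.97 CPM in gut and 8.13 to 9.71 CPM in stomach, the fibroblast markers to 6.06 to 145 CPM in gut and 8.77 to 11.0 CPM in stomach, and the immune markers to 553 to 668 CPM in gut and 7.47 to 21.9 CPM in stomach. Their part in the member results was not tested.

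Among absorptive members, Mttp, which loads lipid onto Apob, had 1077 and 503 CPM in gut and 3.41 and 2.51 CPM in stomach, a log2 difference of 8.31 ± 0.56 (SE, edgeR adjusted p = 6.02e-16). Cdhr5, the partner cadherin of Cdhr2 at microvillus tips, had 635 and 349 CPM in gut and 1.05 and 0.940 CPM in stomach (9.21 ± 0.73, edgeR adjusted p = 6.66e-14). Mep1b had 373 and 174 CPM in gut and 0 and 0.627 CPM in stomach (10.7 ± 0.75, edgeR adjusted p = 4.68e-15). Guca2a, the hormone guanylin, had 136 and 263 CPM in gut and no count in stomach, so it was at least 718-fold higher in gut. Mep1b had 2 stomach counts in all, and its pooled level in gut was 1409 times that in stomach (counting interval 389.5 to 11640). The gut and stomach libraries did not overlap for any of these genes, which with 2 libraries in each group adds little to the test. Here and below, the share of all genes without such overlap was not counted. Statements on overlap therefore describe the genes named and are not a further test.

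Of the 8 goblet members, 7 were higher in gut. Zg16 had 1350 and 1514 CPM in gut and 3.28 and 2.51 CPM in stomach (9.15 ± 0.42, edgeR adjusted p = 3.9e-15). Fcgbp had 9579 and 13940 CPM in gut and 45.5 and 6.27 CPM in stomach (8.99 ± 0.73, edgeR adjusted p = 1.57e-13), and Tff3 had 1190 and 1286 CPM in gut and 1.18 and 0.627 CPM in stomach (10.5 ± 0.66, edgeR adjusted p = 1.92e-12). Stomach was not empty of this class. Spink4 had 653 and 990 CPM in gut and 66.6 and 129 CPM in stomach (3.28 ± 0.30, edgeR adjusted p = 2.49e-12), and Clca1, a mucus-processing metalloprotease, had 1684 and 2647 CPM in gut and 453 and 366 CPM in stomach (2.62 ± 0.31, edgeR adjusted p = 5.31e-09). Reg4, a lectin of secretory cells, and Atoh1, the transcription factor that commits cells to secretory fates, were listed without a stomach count. Reg4 was at least 533-fold higher in gut and Atoh1 at least 183-fold. Spdef, a goblet maturation factor downstream of Atoh1, was not called, at 27.8 and 82.9 CPM in gut and 42.4 and 40.7 CPM in stomach.

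All 4 Paneth and antimicrobial members were higher in gut with edgeR, and with DESeq2 the calls of Reg3b, Reg3g and Defa24 were lost (adjusted p = 0.0593, 0.219 and 0.213). Reg3g (9.61 ± 0.87, edgeR adjusted p = 2.9e-09) and Reg3b (11.7 ± 1.25, edgeR adjusted p = 5.2e-08) had at most 1.44 CPM in a stomach library. Lyz1 (10.9 ± 1.69, edgeR adjusted p = 1.48e-06) had 0.131 and 0.313 CPM there. The pooled gut level was 2326 times that of stomach for Reg3b (counting interval 795 to 11280, 3 stomach counts) and 2081 times for Lyz1 (575.5 to 17190, 2 stomach counts). Without gut library 1 the log2 difference was 7.88 for Reg3b and 7.62 for Reg3g, and without gut library 2 it was 9.33 for Lyz1. Defa24 had no stomach count and was at least 1688-fold higher in gut. Of the stem members, Olfm4 (7.92 ± 0.72, edgeR adjusted p = 1.78e-09) and Smoc2, a secreted matrix protein of crypt stem cells (5.44 ± 0.69, edgeR adjusted p = 1.69e-08), were higher in gut. Prom1, a membrane protein of microvilli and progenitors, had 120 and 121 CPM in gut and 216 and 138 CPM in stomach and was not called. Ephx2, an epoxide hydrolase, at 72.0 and 60.8 CPM in gut and 67.4 and 58.9 CPM in stomach, and Ascl2 were not called either. Alpha-defensins, the Reg3 pair and the 2 lysozyme genes have near copies in the genome, and how shared reads were counted is not given in the sources used here.

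A wider list of intestinal genes followed the members. Of 96 other intestinal genes tested of 107 listed, 67 were higher in gut than in stomach and 8 were lower. The 4 with the smallest p were Muc2, the main intestinal mucin, at 6181 CPM in gut and 6.34 CPM in stomach, the vitamin D receptor Vdr, the transcription factor Maf and the iron oxidase Heph. Among transcription factors, Cdx1 had 33.9 and 49.8 CPM in gut and no stomach count, and Hnf4a had 784 and 522 CPM in gut and 203 and 154 CPM in stomach.

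The columnar cells of the junction held some absorptive members at a high level and others near 0. They were sorted for high EpCam and YFP, and stomach and gut cells for YFP. The former library names begin with 9 for junction columnar cells and 10 for junction squamous cells. Those of stomach, gut and K8YFP+ cells begin with 6, and what the number marks is not stated. Differences in gate or in what the number marks cannot be told apart from tissue where these groups are compared. Compared with stomach, 15 members were higher and 5 were lower (edgeR quasi-likelihood test, 18.5% of the 22370 genes tested higher and 13.4% lower), with a median of 1.19 on the log2 scale beside 0.0679 over all genes. DESeq2 called 9 higher. Of the 22 absorptive members 8 were higher and 2 lower. Cdhr2 had 324, 374.5, 182 and 309 CPM in junction columnar cells and 3.28 and 1.25 CPM in stomach (6.64 ± 0.71, edgeR adjusted p = 6.27e-10). Cdhr5 had 87.9, 90.7, 31.0 and 59.5 CPM in junction columnar cells and 1.05 and 0.940 CPM in stomach (5.84 ± 0.68, edgeR adjusted p = 5e-09). Anpep, the brush border aminopeptidase N, had 567, 653, 868 and 526 CPM in junction columnar cells and 57.4 and 10.0 CPM in stomach (4.01 ± 0.58, edgeR adjusted p = 4.66e-07). In all 3 genes every junction library lay above both stomach libraries. Vil1, with 266, 296, 169 and 225 CPM in junction columnar cells and 61.8 and 37.0 CPM in stomach, Gpa33, a cell surface antigen, Mttp, Fabp1, a fatty acid binding protein shared with liver, and Apob were the other absorptive members called higher. The call of Mttp was lost without either stomach library, that of Fabp1 without either stomach library, without junction library 1 or 2 and with DESeq2, and that of Apob with DESeq2 and without any 1 of the 6 libraries, with log2 differences of 2.06 to 2.68.

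Other absorptive members were low in junction columnar cells, where Sis had 0.922, 0, 0 and 0 CPM, Mep1b 0.461, 0, 0.233 and 0 CPM, and Lct 0, 0.340, 0.933 and 0.181 CPM. Alpi had 8.30 CPM in junction library 1 and at most 0.233 CPM in the other 3. Apoa4 had 0.615 to 1.40 CPM, where about 34.9% of its exon bases overlap a gene on the other strand. Fabp2, the intestinal fatty acid binding protein, was lower in junction columnar cells at 1.38, 1.36, 0.467 and 1.81 CPM than in stomach at 18.1 and 12.5 CPM (-3.78 ± 0.52, edgeR adjusted p = 1.9e-07), and Ephx2 was lower as well (-1.93 ± 0.32, edgeR adjusted p = 7.03e-06).

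**Figure D3:**
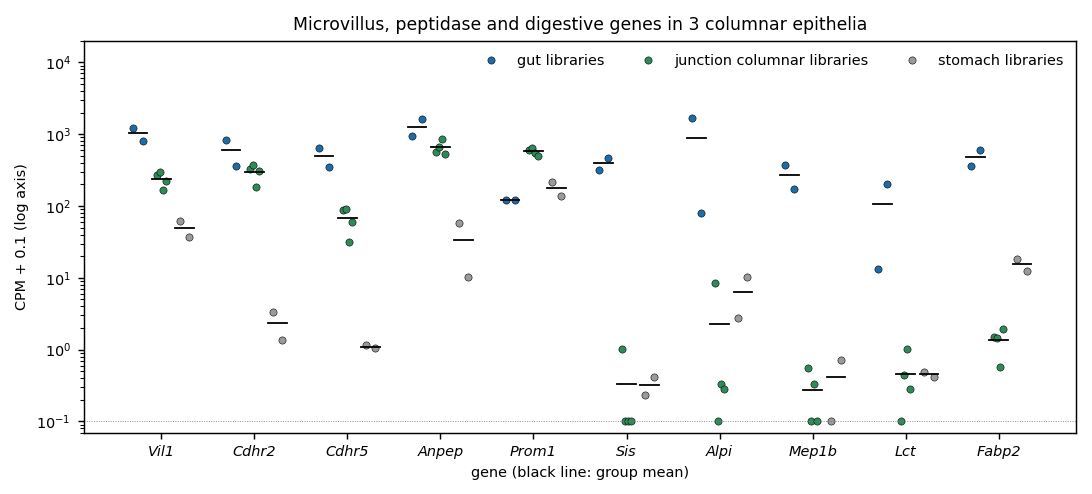
Levels of 10 members in the libraries of gut, junction columnar cells and stomach (points, CPM plus 0.1 on a log axis, with the group mean as a black line). Vil1, Cdhr2, Cdhr5, Anpep and Prom1 on the left are high in junction columnar cells, and Sis, Alpi, Mep1b, Lct and Fabp2 on the right are under 10 CPM there and high in gut.

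Among the goblet members, 3 were lower and 2 higher in junction columnar cells than in stomach. Spink4 had 16.1 to 29.1 CPM in junction columnar cells and 66.6 and 129 CPM in stomach (-2.35 ± 0.24, edgeR adjusted p = 1.25e-10), and Clca1 had 89.4 to 181 CPM in junction columnar cells and 453 and 366 CPM in stomach (-1.98 ± 0.25, edgeR adjusted p = 3.2e-08). Zg16 was lower (-2.52 ± 0.55, edgeR adjusted p = 0.00088) at 0 to 1.63 CPM in junction columnar cells. Spdef was higher at 145, 118, 71.2 and 60.9 CPM in junction columnar cells than in stomach (1.04 ± 0.36, edgeR adjusted p = 0.0249), and so was Tff3 at 2.72 to 7.93 CPM. Neither the Spdef nor the Tff3 call held without stomach library 1 or 2 or with DESeq2, the Spdef call was also lost without junction library 1 or 2 and the Tff3 call without junction library 3, and the Zg16 call was lost without stomach library 1. Of the antimicrobial members, Reg3g was higher at 19.2 to 46.7 CPM in junction columnar cells (4.47 ± 0.81, edgeR adjusted p = 0.000141). Lyz1 was higher (8.38 ± 1.68, edgeR adjusted p = 0.000129), and 1 library held most of it, at 294 CPM in library 3 against 1.69, 6.98 and 9.40 CPM in the others. Without junction library 3 the Lyz1 difference was 4.68 on the log2 scale (edgeR adjusted p = 0.000757), and with only the 2 groups compared its call was lost (8.35, edgeR adjusted p = 0.067). The Reg3g call was lost with DESeq2.

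Of the 4 stem and progenitor members 3 were higher in junction columnar cells than in stomach. Prom1 had 609, 648, 547 and 497 CPM in junction columnar cells and 216 and 138 CPM in stomach (1.49 ± 0.25, edgeR adjusted p = 9.76e-06). Smoc2 had 27.5 to 61.4 CPM in junction columnar cells and 0.787 and 0.627 CPM in stomach (5.73 ± 0.64, edgeR adjusted p = 1.27e-09). Ascl2 had 7.07, 12.6, 9.10 and 9.76 CPM in junction columnar cells and 1.05 and 0.627 CPM in stomach (3.2 ± 0.69, edgeR adjusted p = 0.000336). No junction library overlapped a stomach library for these 3 genes. Of 96 other intestinal genes tested, 30 were higher and 13 lower in junction columnar cells. The smallest p belonged to Cd44, a Wnt target and surface receptor, which was higher, and the next 3 to Capn9, Fer1l6 and Sytl2, which were lower. Markers of other cell types moved with these results: 5 of 5 tuft cell markers and 6 of 6 enteroendocrine markers were higher in junction columnar cells. The tuft markers summed to 2377 to 4686 CPM in junction columnar cells and to 224 and 178 CPM in stomach, and the enteroendocrine markers to 1543 to 3073 CPM in junction columnar cells and to 178.5 and 20.1 CPM in stomach. Their part in the member results was not tested.

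Against the gut level, 34 members were higher in gut than in junction columnar cells and 2 were lower (edgeR quasi-likelihood test, 18.8% of 22370 genes higher and 23% lower). The lower pair were Ascl2 (-3.15 ± 0.78, edgeR adjusted p = 0.00102) and Prom1 (-1.79 ± 0.26, edgeR adjusted p = 2.31e-07), and Spdef and Smoc2 were not called. Junction columnar cells reached at least 10% of the gut mean for 11 members and stayed under 1% for 16. The share was 23.4% for Vil1, and the log2 difference of gut over junction columnar cells was smallest among the higher members for Anpep (1.39 ± 0.44, edgeR adjusted p = 0.00906) and Cdhr2 (1.54 ± 0.42, edgeR adjusted p = 0.00263). Without gut library 1 the Cdhr2 difference was 0.60 on the log2 scale (edgeR adjusted p = 0.446), and without gut library 2 the calls of Anpep (1.12, edgeR adjusted p = 0.111), Lyz1 (0.96, edgeR adjusted p = 0.482) and Ascl2 (-2.55, edgeR adjusted p = 0.0523) were lost. The 4 members without a junction count were higher in gut by at least 3464-fold (Defa24), 1095-fold (Reg4), 376-fold (Atoh1) and 13.4-fold (Mep1a). A lower call was not open to these 4. By class, the smallest p among absorptive members went to Guca2a, with 2 junction counts and a gut level 2302 times that of junction columnar cells (counting interval 636 to 19030), and to Mep1b (10.9 ± 0.54, edgeR adjusted p = 6.78e-20), Mttp (6.78 ± 0.37, edgeR adjusted p = 4.43e-19) and Fabp2 (8.95 ± 0.49, edgeR adjusted p = 4.43e-19). Among goblet members it went to Spink4 (5.63 ± 0.25, edgeR adjusted p = 2.77e-22), Zg16 (11.7 ± 0.36, edgeR adjusted p = 6.08e-19), Clca1 (4.6 ± 0.26, edgeR adjusted p = 1.73e-18) and Fcgbp (8.54 ± 0.52, edgeR adjusted p = 1.43e-17). The antimicrobial lectins Reg3b (7.75 ± 0.68, edgeR adjusted p = 9.5e-10) and Reg3g (5.13 ± 0.48, edgeR adjusted p = 3.11e-09), the lysozyme Lyz1 (2.55 ± 0.74, edgeR adjusted p = 0.00456) and the stem cell marker Olfm4 (6.34 ± 0.47, edgeR adjusted p = 2.02e-11) were higher in gut as well. Cdx2 and Cdx1 had at most 0.307 CPM in a junction library. Markers of other cell types differed too. Of 8 fibroblast markers 4 were higher and 0 lower in gut, and of 7 immune markers tested 3 were higher and 1 lower. Of 5 tuft markers 5 were lower in gut, and of 6 enteroendocrine markers 2 were higher and 3 lower. Their part in the member results was not tested.

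Set against the squamous cells from the other side of the junction, 25 of the 38 members had enough counts to be tested, and 22 were higher and 1 was lower in columnar cells (edgeR quasi-likelihood test, 39.2% of 17185 genes higher and 35.2% lower). The other 13 were too low in both groups. Of the members tested, 6 had no squamous count and passed the count filter through the columnar libraries alone. So did Cdhr2, Spdef and Olfm4, with 1 or 2 squamous counts. A lower call was not open to these members, so the count of higher members is partly set by the filter. Prom1 (9.67 ± 0.24, edgeR adjusted p = 7.17e-11) and Vil1 (9.03 ± 0.33, edgeR adjusted p = 8.82e-10) had the smallest p. Anpep (5.35 ± 0.23, edgeR adjusted p = 2.57e-09) was higher too, and Cdhr2, with 2 squamous counts, stood at 3048 times the squamous level (counting interval 843.5 to 25180). Of the goblet members Clca1 (7.86 ± 0.47, edgeR adjusted p = 4.47e-08), Spink4 (5.61 ± 0.38, edgeR adjusted p = 1.26e-07) and Fcgbp (4.71 ± 0.59, edgeR adjusted p = 2.25e-05) were higher, and Spdef, again with 2 squamous counts, stood at 1022 times the squamous level (282.5 to 8442). The crypt factor Ascl2 was higher (4.86 ± 0.42, edgeR adjusted p = 1.05e-06), and Olfm4, with 1 squamous count, stood at 59.2 times the squamous level (10.3 to 2373). Several members had no squamous count, which makes columnar cells higher by at least 1317-fold for Apob, 517-fold for Lyz1, 203-fold for Reg3g and 34.9-fold for Reg3b. Without junction library 3 the Lyz1 bound was 40.0-fold, and its call was lost without squamous library 3 (edgeR adjusted p = 0.0531). The member that ran the other way was Slc15a1, the peptide transporter PEPT1, at 0.461, 0.340, 0.700 and 0.362 CPM in columnar cells and 5.33, 2.92 and 3.85 CPM in squamous cells (-3.40 ± 0.39, edgeR adjusted p = 1.07e-05). Smoc2 and Mttp were not called.

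The K8YFP+ cells of SmoM2 oesophagus were far from the gut level of nearly every member. Krt8, the gene that the reporter is named for, was at 15.4, 39.8 and 10.2 CPM in K8YFP+ cells and 0.235, 3.32 and 0.659 CPM in K8YFP- cells. Against gut, 35 members were lower in K8YFP+ cells and none was higher (edgeR quasi-likelihood test, 24.5% of 22370 genes lower and 24.9% higher), with a median of -8.14 on the log2 scale. The 35 include each member with an unadjusted p under 0.05, and DESeq2 also called 0 higher. The 3 not called were Ascl2, Smoc2 and Slc15a1. Slc15a1 had 45.5, 54.2 and 38.5 CPM in K8YFP+ cells and 96.3 and 51.5 CPM in gut (-0.78 ± 0.54, edgeR adjusted p = 0.239). The goblet genes were far from it: Zg16 had no count in K8YFP+ cells and 1350 and 1514 CPM in gut, at least 5790-fold lower, and Clca1 (-12.7 ± 0.49, edgeR adjusted p = 2.46e-24), Spink4 (-12.2 ± 0.47, edgeR adjusted p = 1.5e-24) and Tff3 had at most 0.622 CPM in a K8YFP+ library. Fcgbp was less distant (-8.6 ± 0.61, edgeR adjusted p = 4.06e-16). Among absorptive members the smallest p went to Mttp (-6.88 ± 0.44, edgeR adjusted p = 1.85e-17), Guca2a (-10.1 ± 0.64, edgeR adjusted p = 2.12e-17), Mep1b (-8.98 ± 0.57, edgeR adjusted p = 4.92e-17) and Fabp2 (-8.16 ± 0.56, edgeR adjusted p = 1.85e-16). The antimicrobial members Reg3g (-10.6 ± 0.82, edgeR adjusted p = 5.25e-11), Reg3b (-11.2 ± 1.06, edgeR adjusted p = 1.97e-09) and Lyz1 (-11.8 ± 1.61, edgeR adjusted p = 4.19e-08) and the stem members Prom1 (-7.05 ± 0.40, edgeR adjusted p = 5.43e-19) and Olfm4 (-8.09 ± 0.65, edgeR adjusted p = 5.35e-11) were lower in K8YFP+ cells. Several of these rest on 1 or 2 K8YFP+ counts, with a pooled level relative to gut of 0.000795 for Guca2a (counting interval 9.62e-05 to 0.00288), 0.000196 for Spink4 (2.37e-05 to 0.000707) and 0.000214 for Lyz1 (5.42e-06 to 0.0012). Muc2 averaged 0.444 CPM in K8YFP+ cells and 6181 CPM in gut. Defa24, Atoh1 and Mep1a had no count in any K8YFP+ library. A higher call was not open to these genes or to Zg16, so the count of lower members is partly set in advance. Markers of other cell types differed as well. Of 7 immune markers tested 5 were lower and 1 higher in K8YFP+ cells, and of 6 enteroendocrine markers 5 were lower and 0 higher. Of 8 fibroblast markers 3 were higher and 0 lower. Their part in the member results was not tested.

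One K8YFP+ library held most of the absorptive signal. Of the 22 absorptive members, 18 were highest in library 3. Apob had 0, 0 and 19.4 CPM in libraries 1, 2 and 3, Apoa1 had 0, 0.622 and 17.3 CPM, Apoa4 had 0, 0 and 11.5 CPM, and Cdhr2 had 0, 0 and 7.86 CPM. Vil1 had 0.298, 1.87 and 10.5 CPM, and Hnf4a had 0.149, 0 and 3.41 CPM. In library 3 the median level was 1.09% of the gut mean over the absorptive members and 0.016% over the goblet members, and Zg16, Clca1 and Tff3 had no count there. Library 3 was neither the deepest nor the shallowest of the group. The names the libraries had before renaming begin with the same number, 6, for K8YFP+, K8YFP-, gut and stomach libraries, and whether that number marks a shared run is not stated. The part that shared handling with gut had in library 3 was not tested.

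**Figure D4:**
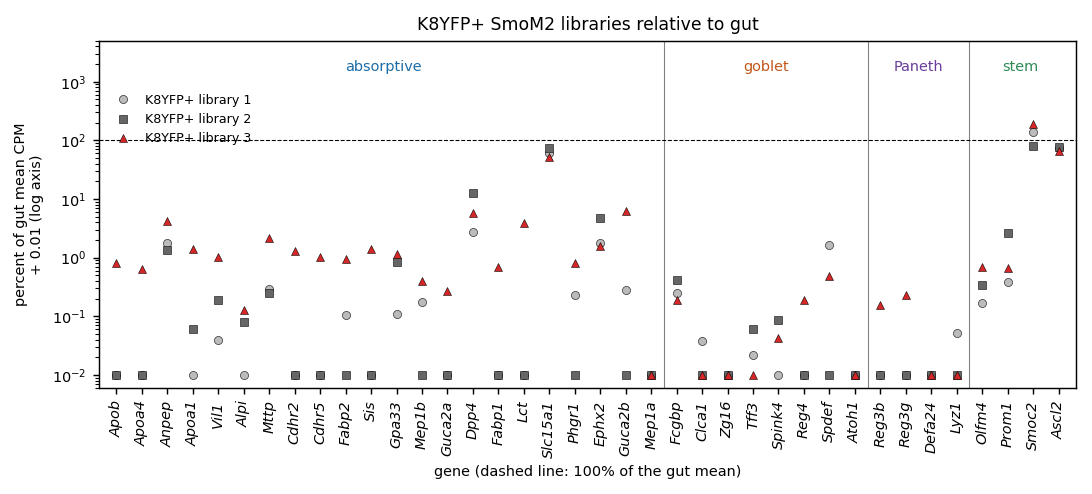
Level of each member in the 3 K8YFP+ libraries as a percent of the gut mean (plus 0.01, log axis), grouped by function and ordered by gut level. The triangles of library 3 lie near 1% for most absorptive members, above libraries 1 and 2, while goblet members lie under 1% apart from Spdef in library 1, and Slc15a1, Smoc2 and Ascl2 come near or pass the gut mean, which is drawn as a dashed line.

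K8YFP+ cells and junction columnar cells are both YFP-sorted cells of the upper tract. Compared with junction columnar cells, 21 members were lower and 3 higher in K8YFP+ cells (edgeR quasi-likelihood test, 33.4% of 22370 genes lower and 27.4% higher). Markers of other cell types moved with this comparison: 8 of 8 fibroblast markers were higher in K8YFP+ cells, and 5 of 5 tuft and 6 of 6 enteroendocrine markers were lower. Fibroblast markers summed to 68.9 to 598 CPM in K8YFP+ cells and 14.6 to 42.2 CPM in junction columnar cells, tuft markers to 11.6 to 35.5 CPM in K8YFP+ cells and 2377 to 4686 CPM in junction columnar cells, and enteroendocrine markers to 0.262 to 1.87 CPM in K8YFP+ cells and 1543 to 3073 CPM in junction columnar cells. Their part in the member results was not tested. Prom1, at 0.447, 3.11 and 0.786 CPM in K8YFP+ cells and 497 to 648 CPM in junction columnar cells, was lower (-8.84 ± 0.38, edgeR adjusted p = 1.1e-23). Also lower were Clca1 (-8.09 ± 0.49, edgeR adjusted p = 2.71e-18), Cdhr2 (-6.42 ± 0.61, edgeR adjusted p = 3.93e-12), Vil1 (-5.49 ± 0.57, edgeR adjusted p = 2.68e-11) and Cdhr5 (-4.95 ± 0.56, edgeR adjusted p = 3.52e-10). The goblet factor Spdef (-7.04 ± 0.54, edgeR adjusted p = 4.09e-15), Spink4 (-6.56 ± 0.55, edgeR adjusted p = 6.59e-14), Tff3 (-4.44 ± 1.02, edgeR adjusted p = 0.000537), the lectins Reg3g (-5.48 ± 0.87, edgeR adjusted p = 6.72e-06) and Reg3b (-3.49 ± 1.42, edgeR adjusted p = 0.0364), Lyz1 (-9.26 ± 1.66, edgeR adjusted p = 6.95e-06), Ascl2 (-3.64 ± 0.68, edgeR adjusted p = 1.21e-05) and Olfm4 (-1.75 ± 0.74, edgeR adjusted p = 0.0432) were lower in K8YFP+ cells. With 1 or 2 K8YFP+ counts, the pooled level relative to junction columnar cells was 0.00722 for Spink4 (counting interval 0.000872 to 0.0262), 0.0330 for Tff3 (0.00394 to 0.122) and 0.00134 for Lyz1 (3.4e-05 to 0.0075). Slc15a1 was higher in K8YFP+ cells (7.03 ± 0.68, edgeR adjusted p = 4.38e-12), where all 3 libraries had at least 38.5 CPM and no junction columnar library passed 0.700 CPM. Sis and Apoa4 were the other members called higher, and without K8YFP+ library 3 their log2 differences were -3.95 (edgeR adjusted p = 0.258) and -5.49 (edgeR adjusted p = 0.239).

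Within the same SmoM2 tissue, K8YFP+ cells were set against K8YFP- cells. Enough counts for a test were found for 6 members, of which 2 were higher and 1 was lower in K8YFP+ cells (edgeR quasi-likelihood test, 13.1% of 15598 genes higher and 6.83% lower). With the shared replicate number as a block 4 were higher, with no filter on low counts 14 were, and in a fit over all 14 groups, which tests all 38 members, 16 were. Calls over all genes, in either direction, changed with the setting as well. They were 3110 of 15598 genes in the main result, 4785 of 15598 with the block, 4011 of 31012 with no filter and 6733 of 22370 in the fit over all 14 groups. Slc15a1 had 45.5, 54.2 and 38.5 CPM in K8YFP+ cells and 10.3, 2.89 and 1.21 CPM in K8YFP- cells (3.63 ± 0.67, edgeR adjusted p = 0.0109). Anpep had 22.2, 16.8 and 53.2 CPM in K8YFP+ cells and 19.0, 14.8 and 12.6 CPM in K8YFP- cells (1.38 ± 0.40, edgeR adjusted p = 0.0442), and the groups overlapped. Without K8YFP+ library 3 the Anpep difference was 0.71 (edgeR adjusted p = 0.129), and the call was also lost without any 1 K8YFP- library. Smoc2 was lower at 38.3, 22.4 and 53.5 CPM in K8YFP+ cells than in K8YFP- cells at 166, 152 and 151 CPM (-1.64 ± 0.23, edgeR adjusted p = 0.00483). Of 40 other intestinal genes tested, 11 were higher and 4 lower, among them the fat synthesis enzyme Dgat2 (2.23 on the log2 scale), the mucin glycosyltransferase Galnt12 (2.46) and the ion cotransporter Slc12a2 (-1.49). Fibroblast markers moved with the gate: they summed to 68.9, 598 and 312 CPM in K8YFP+ cells and to 16.7, 78.0 and 69.5 CPM in K8YFP- cells, and their part in these results was not tested.

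In the SmoM2 group, EpCam-high cells not split by YFP, 8 members could be tested against WT, and 4 were higher and 2 lower in SmoM2 cells (edgeR quasi-likelihood test, 26.2% of 16224 genes higher and 23.3% lower). Genotype and gate changed together here, since the SmoM2 cells were EpCam-high and the WT cells EpCam-low. The former library names begin with 1 or 2 in SmoM2 cells and with 4 to 6 in WT, and what that number marks is not stated. Any difference that it marks cannot be told apart from genotype either. Anpep ranged between 8.97 and 16.8 CPM with a median of 12.9 CPM in SmoM2 cells and between 1.34 and 1.81 CPM with a median of 1.40 CPM in WT (2.97 ± 0.18, edgeR adjusted p = 7.91e-09). Fcgbp ranged between 11.2 and 23.6 CPM with a median of 17.1 CPM in SmoM2 cells and between 1.77 and 4.63 CPM with a median of 2.67 CPM in WT (2.38 ± 0.27, edgeR adjusted p = 4.23e-06). Smoc2 ranged between 152 and 296 CPM with a median of 181 CPM in SmoM2 cells and between 41.7 and 60.5 CPM with a median of 54.0 CPM in WT (1.84 ± 0.19, edgeR adjusted p = 2.26e-06). The groups did not overlap for these 3 genes, nor for Lct, at 1.58 to 4.24 CPM with a median of 2.66 CPM in SmoM2 cells and 0.118 to 0.498 CPM with a median of 0.290 CPM in WT (2.96 ± 0.35, edgeR adjusted p = 6.17e-06).

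The lower pair in SmoM2 cells were Dpp4, a brush border dipeptidase, at 1.20 to 4.67 CPM with a median of 1.88 CPM in SmoM2 cells and 5.55 to 15.3 CPM with a median of 8.46 CPM in WT (-2.11 ± 0.33, edgeR adjusted p = 9.59e-05), and Ephx2 at 0.316 to 1.89 CPM with a median of 1.13 CPM in SmoM2 cells and 1.42 to 3.84 CPM with a median of 2.39 CPM in WT (-1.32 ± 0.37, edgeR adjusted p = 0.00813). The groups did not overlap for Dpp4 and did for Ephx2. Mttp and Slc15a1 were not called. For scale, the SmoM2 mean of Anpep, 12.8 CPM, lies far under its gut mean of 1275 CPM, and no Paneth member passed its detection limit in SmoM2 cells. Of 43 other intestinal genes tested, 19 were higher and 7 lower. Those with the smallest p were the stem cell receptor Lgr5 (8 ± 0.23 on the log2 scale), the microvillus actin bundler Pls1 (5.02 ± 0.30) and the growth regulators Znrf3 (1.37) and Lrig1 (1.74).

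In Sox9cKO cells 1 member differed from SmoM2 cells. The gate of the Sox9cKO libraries is not given in the labels, so any difference in gate cannot be told apart from genotype here. Sox9 itself was at 51.7, 45.7, 127 and 45.8 CPM in Sox9cKO cells and 72.7 to 194 CPM in SmoM2 cells, so the library labelled Sox9cKO 3 was inside the SmoM2 range. Of 10 members tested, Anpep alone was called, at 24.3, 29.1, 32.0 and 28.9 CPM in Sox9cKO cells and 8.97 to 16.8 CPM in SmoM2 cells (1.20 ± 0.17, edgeR adjusted p = 0.0041, where 1.18% of 17047 genes were higher and 1.48% lower). The groups did not overlap. No member was called with the replicate number as a block, in which 2 SmoM2 libraries have no partner. Of 44 other intestinal genes tested, 1 was higher and 3 lower, with the enterocyte keratin gene Krt20 lower at 3.22 CPM in Sox9cKO cells and 38.6 CPM in SmoM2 cells (-3.52 ± 0.32, edgeR adjusted p = 0.000204).

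The gate could be set apart from genotype in the SmoM2 cells taken at 3 and 7 weeks. At 3 weeks 11 members were tested, of which 2 were higher and 1 lower in EpHi cells (edgeR quasi-likelihood test, 7.37% of 17263 genes higher and 7.84% lower). Anpep had 3.26, 3.97, 4.06 and 4.60 CPM in EpHi cells and 1.67, 1.37, 1.55 and 2.26 CPM in EpLo cells (1.16 ± 0.25, edgeR adjusted p = 0.00186), and Fcgbp had 10.8, 6.47, 8.11 and 7.23 CPM in EpHi cells and 3.49, 3.51, 2.62 and 3.71 CPM in EpLo cells (1.25 ± 0.28, edgeR adjusted p = 0.00296). Ephx2 was lower in EpHi cells (-1.08 ± 0.35, edgeR adjusted p = 0.0397), a call lost without any 1 of 5 of the 8 libraries. In a fit over all 14 groups none of the 3 was called.

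At 7 weeks 3 of the 11 members were higher in EpHi cells and none was lower (edgeR quasi-likelihood test, 15.5% of 17263 genes higher and 16.8% lower). Of the 11, 5 had an unadjusted p under 0.05, and DESeq2 called 0 lower. Anpep had 7.73, 9.10, 10.4 and 11.6 CPM in EpHi cells and 1.74, 0.790, 2.60 and 1.40 CPM in EpLo cells (2.48 ± 0.24, edgeR adjusted p = 1.25e-08). Fcgbp had 10.3, 13.2, 16.9 and 18.7 CPM in EpHi cells and 3.08, 4.35, 5.36 and 5.42 CPM in EpLo cells (1.67 ± 0.27, edgeR adjusted p = 2.72e-05). Smoc2 had 109, 132, 204 and 150 CPM in EpHi cells and 63.9, 71.9, 105 and 76.2 CPM in EpLo cells (0.86 ± 0.20, edgeR adjusted p = 0.00137). No library overlapped between the gates for these 3 genes. The gate difference of Anpep was larger at 7 than at 3 weeks by 1.32 ± 0.36 on the log2 scale (edgeR adjusted p = 0.0491 for the interaction, where 1.55% of 17263 genes were higher and 0.759% lower), and that call was lost in a fit over all 14 groups, with no filter, with summed WT pairs, with DESeq2 and without any 1 of 14 libraries.

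Over time in EpHi cells, 3 of 11 members were higher and 2 lower at 7 than at 3 weeks (edgeR quasi-likelihood test, 22% of 17263 genes higher and 19.4% lower). The former library names begin with 11 at 3 weeks and with 12 at 7 weeks, and what that number marks is not stated. Any difference that it marks cannot be told apart from time here. Anpep (1.24 ± 0.21, edgeR adjusted p = 5.38e-05), Fcgbp (0.81 ± 0.24, edgeR adjusted p = 0.0107) and Ascl2 (2.29 ± 0.59, edgeR adjusted p = 0.00329) were higher. Lct (-1.37 ± 0.39, edgeR adjusted p = 0.00666) and Vil1 (-1.36 ± 0.44, edgeR adjusted p = 0.0152) were lower, both under 3 CPM in every library of either time. The Vil1 call was lost without 7-week EpHi library 1 and the Fcgbp call without 7-week EpHi library 4. Of 44 other intestinal genes 15 were higher and 4 lower, led by the Wnt regulator Rnf43 and the guidance receptor Ephb2.

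The EpCam-low SmoM2 cells allowed a comparison with WT cells of the same gate. At 3 weeks 5 of 11 members were higher and 2 lower in EpLo cells (edgeR quasi-likelihood test, 23.1% of 17263 genes higher and 24.3% lower). Lct (2.63 ± 0.40, edgeR adjusted p = 9.54e-06), Smoc2 (0.82 ± 0.18, edgeR adjusted p = 0.000552), Mttp (0.52 ± 0.15, edgeR adjusted p = 0.0055), Fabp2 (1.22 ± 0.42, edgeR adjusted p = 0.021) and Vil1 (1.04 ± 0.40, edgeR adjusted p = 0.038) were higher, and Dpp4 (-1.44 ± 0.33, edgeR adjusted p = 0.000986) was lower. At 7 weeks 2 were higher and 2 lower (19.4% of genes higher and 21% lower): Fabp2 (1.35 ± 0.42, edgeR adjusted p = 0.0129), Smoc2 (0.48 ± 0.18, edgeR adjusted p = 0.0341), Ephx2 (-0.95 ± 0.32, edgeR adjusted p = 0.0208) and Slc15a1. Slc15a1 was lower at both times, with 0.152, 0.916, 0.357 and 0.484 CPM in EpLo cells at 3 weeks (-3.62 ± 0.59, edgeR adjusted p = 2.47e-05), 0.670, 0.198, 0.153 and 1.05 CPM at 7 weeks (-3.52 ± 0.59, edgeR adjusted p = 5.59e-05) and 2.94 to 14.6 CPM in WT. The Fabp2 calls were lost without EpLo library 4 of either time, the Vil1 call without any 1 of 5 libraries, and the 7-week calls of Smoc2 and Ephx2 without any 1 of 4 and 3 libraries. Both gates of that set were low for Slc15a1, with 0.140 to 2.73 CPM in EpHi cells. The set's former library names begin with 11 at 3 weeks or 12 at 7 weeks and those of WT with 4 to 6, and what that number marks is not stated. Any difference between the sets that it marks cannot be told apart from genotype here. Anpep and Fcgbp were not called in EpLo cells against WT at either time, with Anpep at 1.71 CPM at 3 weeks, 1.63 CPM at 7 weeks and 1.49 CPM in WT.

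**Figure D5:**
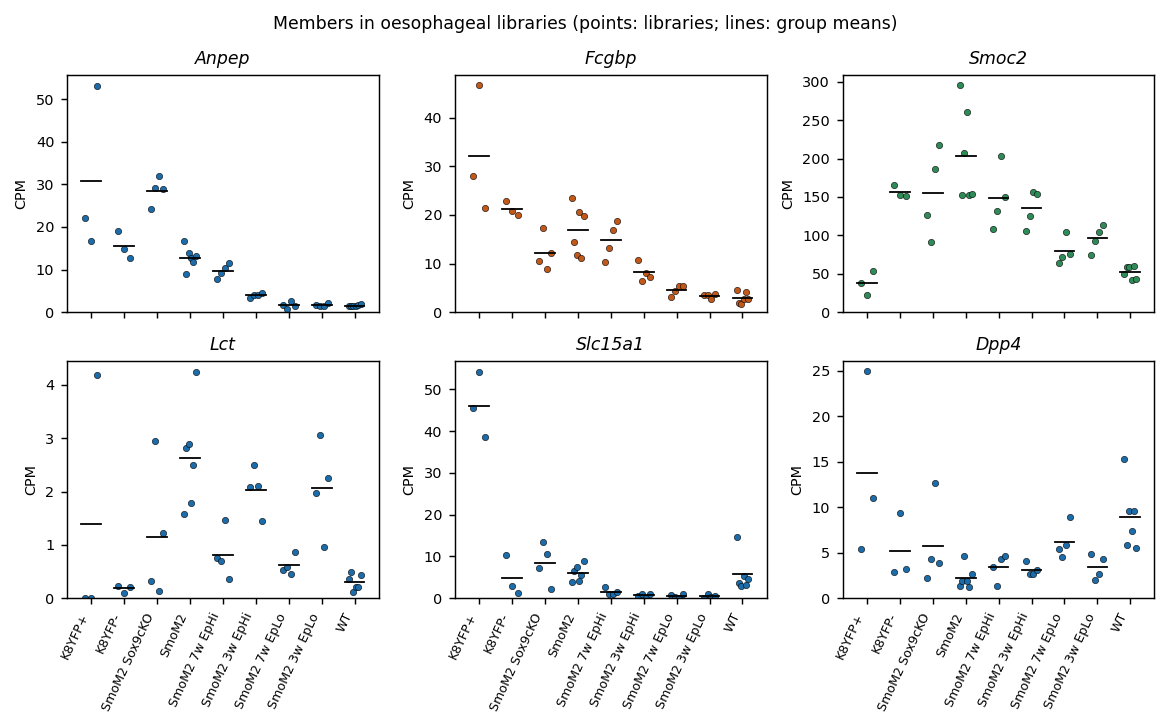
Levels of 6 members in the oesophageal groups (points are libraries, lines are group means, CPM on linear axes that start at 0). The means of Anpep and Fcgbp lie above WT in each EpCam-high SmoM2 group shown, Smoc2 is lowest in K8YFP+ cells and WT, and Slc15a1 is at 38.5 to 54.2 CPM in K8YFP+ cells and at 14.6 CPM or less in the other groups shown.

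In embryonic oesophagus, 20 members were higher and 1 lower than in adult WT (edgeR quasi-likelihood test, 36.1% of 22370 genes higher and 27.8% lower). A lower call was not open to members without a WT count. The smallest p among absorptive members went to Vil1 (5.66 ± 0.53, edgeR adjusted p = 1.42e-12), Anpep (5.19 ± 0.49, edgeR adjusted p = 2.08e-12), Apob (10.9 ± 1.16, edgeR adjusted p = 5.82e-10) and Cdhr5 (5.29 ± 0.67, edgeR adjusted p = 4.15e-09). The embryo libraries stood apart from each other. Apob had 475 and 1.74 CPM in embryo libraries 1 and 2, Anpep 151 and 6.14 CPM, Vil1 81.4 and 6.78 CPM, and Apoa1 22.7 and 1.56 CPM. The same held for intestinal and liver-type factors, with Cdx2 at 41.9 and 0.183 CPM, Hnf4a at 79.9 and 0.916 CPM and Isx, an intestinal homeobox gene, at 14.8 and 0 CPM. Without embryo library 1, 12 members were higher, and the direction turned for Gpa33 (-1.16, edgeR adjusted p = 0.644), Cdhr2 (-1.16, edgeR adjusted p = 0.736) and Dpp4 (-0.21, edgeR adjusted p = 0.795). Of the goblet members Spdef was higher (2.5 ± 0.60, edgeR adjusted p = 0.000331), and Tff3 and Reg4 were at least 30.4-fold and 5.73-fold higher than in WT, where neither had a count. Fabp1 and Tff3, at 4.25 and 3.42 CPM in embryo library 1, had no count in embryo library 2 or in WT. Hepatocyte markers summed to 26.6 CPM in library 1 and 1.19 CPM in library 2. Of 8 fibroblast markers 6 were higher and 0 lower in embryo. They summed to 240.9 to 427.0 CPM in embryo and 19.1 to 112.1 CPM in WT. The part of hepatocyte and fibroblast markers in the member results was not tested.

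A few members were alike in both embryo libraries. Prom1 had 68.8 and 47.5 CPM in embryo and averaged 0.0588 CPM in WT (9.15 ± 0.38, edgeR adjusted p = 1.45e-23). Olfm4, with 1 WT count, stood at 34.3 times the WT level (counting interval 5.22 to 1452). Smoc2 had 93.2 and 165 CPM in embryo and 41.7 to 60.5 CPM in WT (0.77 ± 0.30, edgeR adjusted p = 0.0217), a call lost without embryo library 2. Lct had 2.77 and 4.58 CPM in embryo and 0.118 to 0.498 CPM in WT (3.03 ± 0.75, edgeR adjusted p = 0.000527). Slc15a1 was lower at 0.185 and 0.0916 CPM in embryo than in WT (-5.68 ± 0.97, edgeR adjusted p = 2.15e-06). Among goblet members Fcgbp had the highest embryo level, at 16.1 and 1.10 CPM in embryo libraries 1 and 2, while Clca1 and Atoh1 had no count in either. The antimicrobial members Reg3b, Reg3g and Defa24 and the absorptive member Phgr1 had no count in either embryo library.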

How the data were processed

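RNA of sorted cells was sequenced in 51 libraries made with the Ovation Solo kit, per the labels' protocols. The authors deposited 1 table of whole-number read counts per gene and library, with no normalization. The submitters' processing notes name STAR 2.5.3a, HTSeq, edgeR and the builds GRCm38 and mm10; neither the annotation release nor whether counting used strand is stated in them. Libraries were grouped by their titles. The members and lists were chosen with earlier results of these data known.

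CPM was computed from library totals. The 16 comparisons were tested with edgeR 4.0.16 in R 4.3.3 (TMM scaling, filterByExpr with a minimum count of 10 and a minimum total of 15, two-sided quasi-likelihood F test, Benjamini-Hochberg adjustment over all genes tested, called at 0.05). Comparisons with a group of 2 libraries, and K8YFP+ against junction columnar cells, were fitted over all 51 libraries, the time-series comparisons over WT and the 4 time-series groups, and the others over the 2 groups compared. Member folds and standard errors are on the log2 scale. The test was tried on simulated counts. Members called were named, or the 4 with the smallest p per class where over 12 were called. Of the other intestinal genes up to 4 with the smallest p were named per comparison, and 1 such gene is not reported here. Exon lengths came from GENCODE M21. Intervals and detection limits, set at 3 counts, cover counting error alone. Alternatives were DESeq2 1.42.0, RLE size factors, no filter, other sets of groups, summed WT pairs, a replicate block and leaving out each library.

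Samples with the same replicate number deviated together in K8YFP+ and K8YFP- cells (residual correlations of 0.291 to 0.409) and in 3-week EpHi and EpLo cells (0.165 to 0.295), from the data and not from the labels. WT libraries 3 and 5, and 4 and 6, differed less in their counts (chi-square over degrees of freedom 1.92 and 2.47) than the other WT pairs (11 to 35.6), and each pair shares a former name apart from its leading number. Both lay above sampling noise, which does not show that the libraries of a pair are independent samples. All 6 were kept, so p-values against WT count the libraries of each pair separately. The pairs were summed as an alternative. Over all genes, SmoM2 against WT then gave 7398 calls of 17038 genes tested, beside 8034 of 16224 in the main result.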

Additional observations from a re-analysis of the deposited data

Results flagged for a closer look

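Each member was examined in each group with at least 4 libraries and a mean of at least 1 CPM for it. Of 86 such combinations of a member and a group, 6 held a library far from the rest, and chance gives such a library in about 1 in 20. Gut, stomach, embryo, K8YFP+, K8YFP- and junction squamous libraries were too few per group to be examined. In junction columnar cells, Alpi was 8.30 CPM in library 1 with the next library at 0.233 CPM, Lyz1 was 293.5 CPM in library 3 with the next at 9.40 CPM, and Phgr1, a small gut protein, was 10.8 CPM in library 4 with the next at 4.77 CPM. These fell in 3 different libraries. Mttp was 9.31 CPM in 3-week EpLo library 2, with the next library at 7.74 CPM, and 9.29 CPM in 7-week EpLo library 2, with the next at 7.20 CPM. Slc15a1 was 14.6 CPM in WT library 1, with the next WT library at 5.35 CPM. The difference of Anpep between EpHi and EpLo cells was larger at 7 weeks than at 3 weeks by 1.32 on the log2 scale (edgeR adjusted p = 0.0491).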

How the results depend on the processing

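Of 2592 values of called members under other settings, 2420 kept their direction and their side of the threshold, 167 were no longer called and 5 turned direction. With scaling by RLE no count of called members moved by over 1.5 times, and RLE shifted the median of all genes by over 0.1 in the embryo comparison alone (0.105 on the log2 scale). Values that turned were all single-library cases: without K8YFP+ library 3, Apoa4 (-5.49) and Sis (-3.95) against junction columnar cells, and without embryo library 1, Dpp4 (-0.21), Gpa33 (-1.16) and Cdhr2 (-1.16) against WT. Over all libraries left out in turn the log2 differences ran over -5.49 to 3.605 for Apoa4, -3.95 to 7.06 for Sis, -0.21 to 2.32 for Dpp4, -1.16 to 6.47 for Gpa33 and -1.16 to 7.13 for Cdhr2. The cause was not tested.

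Counts of members called that moved by over 1.5 times were as follows. Calls over all genes changed with the setting too. For SmoM2 against WT they were 8034 of 16224 genes in the main result, 10243 of 26004 with DESeq2, 10456 of 35725 with no filter and 10480 of 22370 in a fit over all 14 groups. With DESeq2, 9 members were higher in junction columnar cells than in stomach (15 in the edgeR result), 9 in SmoM2 than in WT (4), 6 in K8YFP+ than in K8YFP- cells (2) and 2 in Sox9cKO than in SmoM2 cells (1), 2 were lower in columnar than in squamous junction cells (1), and 0 were lower for the 3-week gate and 0 higher for the gate by time. With no filter, more low members were tested: 14 were higher in K8YFP+ than in K8YFP- cells, 10 in SmoM2 than in WT, 3 were lower in columnar than in squamous junction cells, 1 was lower for the 7-week gate, and 0 were lower for the 3-week gate and 0 higher for the gate by time. In a fit over all 14 groups, 16 were higher in K8YFP+ than in K8YFP- cells, 9 in SmoM2 than in WT, 3 lower in columnar than in squamous junction cells, 0 higher and 0 lower for the 3-week gate, 1 higher and 1 lower at 7 than at 3 weeks in EpHi cells, 2 higher in 3-week EpLo cells than in WT, 0 higher and 1 lower in 7-week EpLo cells than in WT, and 0 for the gate by time. With only the 2 groups compared, 1 member was higher in K8YFP+ than in junction columnar cells and 12 in embryo than in WT. With WT pairs summed, 1 was higher in 7-week EpLo cells than in WT and 0 for the gate by time.

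With the replicate block, which pairs the samples for K8YFP+ against K8YFP- cells (4 higher) and the 3-week gate (no count moved), counts elsewhere rest on a shared number alone: 1 member was higher in K8YFP+ than in junction columnar cells, 7 in embryo than in WT, 0 in Sox9cKO than in SmoM2 cells, 1 was lower for the 7-week gate, 1 lower at 7 than at 3 weeks in EpHi cells, 1 higher in 3-week EpLo cells and 1 higher and 1 lower in 7-week EpLo cells than in WT, and 2 higher for the gate by time.

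Leaving out 1 library at a time gave 0 to 1 members higher in K8YFP+ than in gut cells (1 without gut library 2), 1 to 4 higher in K8YFP+ than in junction columnar cells (1 without K8YFP+ library 3), and 12 to 21 higher and 1 to 2 lower in embryo than in WT (12 and 2 without embryo library 1). It gave 1 to 4 higher in K8YFP+ than in K8YFP- cells (4 without K8YFP+ library 1, 1 without any one K8YFP- library), 0 to 1 lower in Sox9cKO than in SmoM2 cells (1 without Sox9cKO library 2), and 0 to 1 lower for the 3-week gate (0 without EpHi library 2 or 4 or EpLo library 2, 3 or 4). It gave 1 to 2 lower at 7 than at 3 weeks in EpHi cells (1 without 7-week library 1), 3 to 5 higher in 3-week EpLo cells than in WT (3 without EpLo library 4), and in 7-week EpLo cells against WT 0 to 3 higher (0 without EpLo library 4, 1 without EpLo library 3 or WT library 4 or 6) and 1 to 3 lower (1 without EpLo library 1 or 3). For the gate by time it gave 0 to 1, with 0 without any one library of the 4 time-series groups other than 7-week EpHi library 1 and 7-week EpLo library 3. A lone library left in a group is assumed to vary like the other groups. The 2 libraries each of gut, stomach and embryo limit what can be said of those groups.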
